A study of Mus musculus with 14 samples.

Results

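The comparison described here set mouse oligodendrocyte precursor cells (OPCs) transfected with an siRNA against Sbp2l against the 4 kinds of control cells harvested on the same day. It held 10 of the 14 libraries of the series, chosen by their labels alone. The 2 siSbp2l libraries were set against 8 control libraries, 2 each from cells left non-treated, mock-transfected, or given NC siRNA #1 or NC siRNA #2, negative control siRNAs. All 10 came from primary OPCs of C57BL/6J mice at Day3, with the genotype given as WT for the controls and as Secisbp2l knockdown for siSbp2l, and the 4 control groups had equal weight. The remaining 4 libraries, Day0 OPCs of WT genotype and Day3 cells given an siRNA against Pdgfra (siPdgfra), were used only to place the result. The cells were panned on Pdgfra from the cortices of several young pups, transfected on the day after seeding and harvested on Day3. The labels do not say whether the replicates of a group came from separate animals, so the p-values measure only the spread between these libraries. The methods list several siRNAs against Sbp2l, the labels do not say which was used, and the sequence of none is given in the sources used here. A result of siSbp2l is therefore a result of this transfection, and an effect of losing Sbp2l and an effect of the siRNA on other mRNAs cannot be told apart by the design.

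OPCs divide, leave the cell cycle and mature through a premyelinating stage into oligodendrocytes (OLs), the cells that wrap axons in myelin. Maturation silences factors that hold precursors back, such as Hes and Id proteins, and switches on myelin proteins, membrane lipid enzymes and a rebuilt cytoskeleton. Sbp2l, encoded by Secisbp2l, is a paralog of Sbp2, the protein that binds the SECIS element of selenoprotein mRNAs during selenocysteine insertion. An siRNA guides a nuclease to a fully matched mRNA, and the seed near the 5′ end of a guide strand can also pair with short matches in the 3′ UTRs of other mRNAs, much as a microRNA does.

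Values are FPKM, that is, fragments scaled to gene length and library size. Differences are log2 fold changes of FPKM + 1, so that changes of low genes are understated, and they stand for siSbp2l minus the mean of the 4 control groups. A gene was called when this difference was at least 2-fold and its limma adjusted p was under 0.05. Of 23427 genes in the table, 11540 reached 1 FPKM in at least 2 of the 10 libraries and were tested. The depth recovered from the steps of low FPKM values was 18.4 to 21.7 M fragments in 9 libraries and 6.54 M in NC siRNA #2 replicate 2. A floor of 3 fragments in a gene of 2000 bases then lay at 0.0693 to 0.229 FPKM, for counting error only. Replicates were least alike among the non-treated cells, where the log2 difference between them had an SD of 0.461, against 0.148 to 0.174 in the other groups. In bulk RNA, fewer cells of a kind and less RNA per cell cannot be told apart.

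As a check of the labels, Secisbp2l (mm10, chromosome 2, 125736986 to 125782870) stood at 3.91 and 3.82 FPKM in the siSbp2l libraries. The 8 control libraries ran from 135 through a median of 159 to 255 FPKM, and the groups did not overlap. The log2 fold change was -5.21 ± 0.12 (SE, limma adjusted p = 1.6e-07), the lowest of all genes tested. Its level at Day0 was 30.9 FPKM, so the siSbp2l libraries also lay below undifferentiated cells.

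Across genes, 364 were called higher (3.15% of those tested) and 475 lower (4.12%) than the mean of the controls. Against each of the 4 controls in the same direction, 139 genes were called higher (1.2%) and 237 lower (2.05%). With non-treated cells alone as the reference, 657 genes were higher (5.69%) and 577 lower (5%), and with mock cells 379 (3.28%) and 554 (4.8%). The counts were 534 (4.63%) and 615 (5.33%) with NC siRNA #1 and 394 (3.41%) and 498 (4.32%) with NC siRNA #2. The same thresholds called fewer genes when a control group was set against the mean of the other 3. NC siRNA #1 had 172 genes higher (1.49%) and 130 lower (1.13%), and NC siRNA #2 had 82 (0.711%) and 131 (1.14%). Non-treated cells had 25 (0.217%) and 21 (0.182%) and mock cells 32 (0.277%) and 7 (0.0607%). The median of all genes was 0.15 on the log2 scale as deposited and 0.00 after median-ratio scaling, so every list median below is read against 0.15. Under that scaling, 218 genes were called higher and 617 lower, and under upper-quartile scaling 241 and 581. Against each of the 4 controls, these scalings gave 87 and 97 genes higher and 323 and 293 lower. Of the genes called against each control, 90 of 139 higher and 165 of 237 lower belonged to none of the 74 gene lists used.

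**Figure D1:**
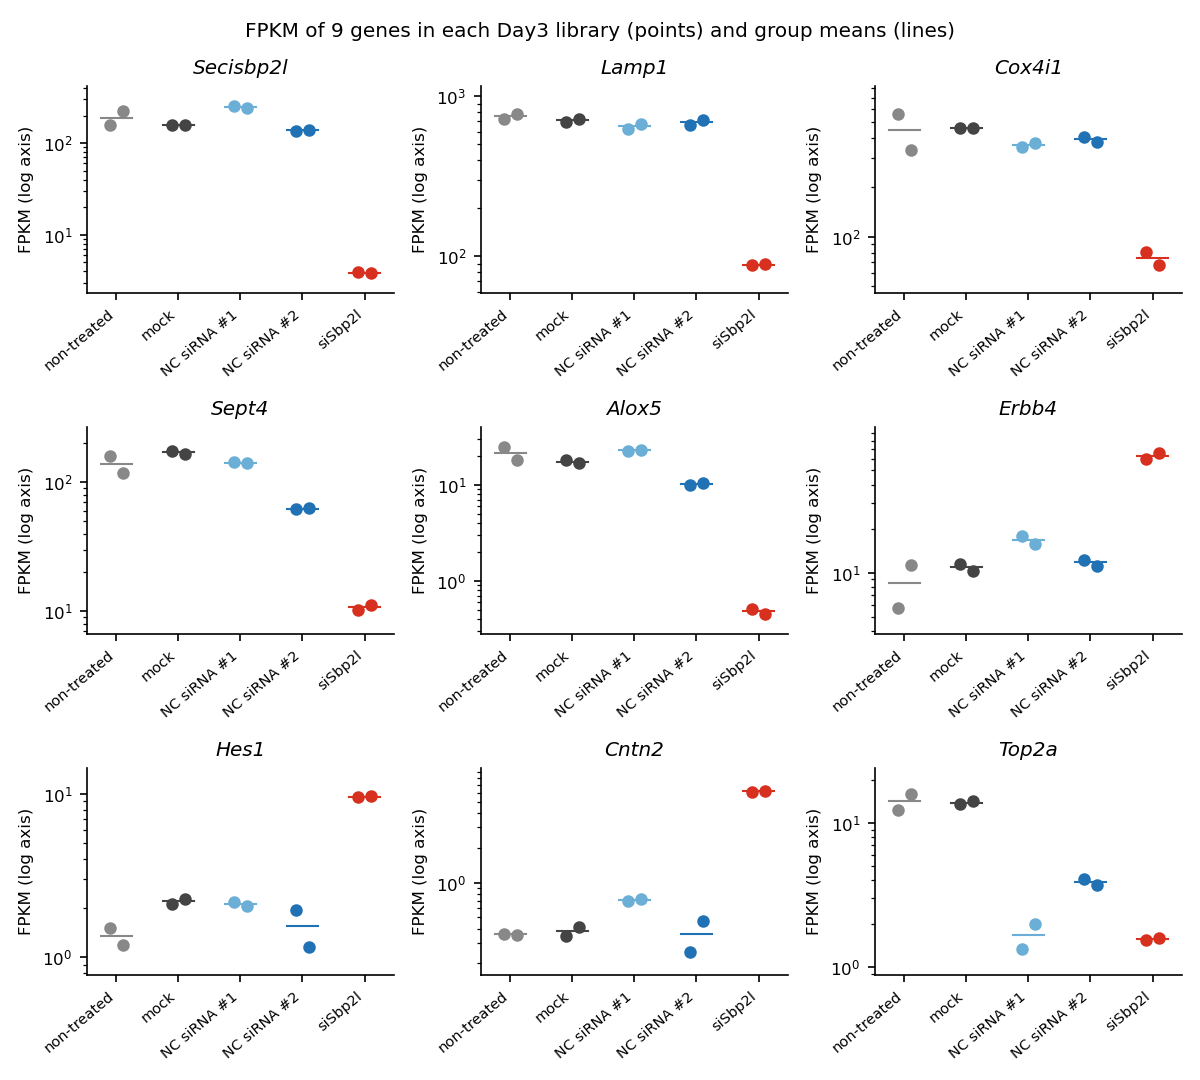
FPKM of 9 genes in each library (points) of the 5 groups compared, on a logarithmic axis, with lines at the group means. The siSbp2l points of Secisbp2l, Lamp1, Cox4i1, Sept4 and Alox5 lay below every control point, those of Erbb4, Hes1 and Cntn2 above every control point, and those of Top2a lay among the NC siRNA #1 points and below the other controls.

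Part of the lower genes shared a short sequence that the comparison had not used. Each of the 16384 words of 7 letters was looked for in the longest annotated 3′ UTR of each gene, on the strand of the transcript (GENCODE vM21, GRCm38, the same build as mm10), and 15645 words were held by at least 100 genes. A 3′ UTR was found for 10431 of the 11538 distinct gene symbols tested (90.4%). Ranked by the median log2 fold change of the genes that held them, the lowest word was GCTAATA, at -0.26 over 701 genes (6.72% of all 3′ UTRs). The next words were CGCTAAT at -0.07 (125 genes) and CTAATAA at -0.05 (1262 genes), which overlap it, and GCTCAAT at -0.03 (605 genes). The word was picked because its genes were low in these libraries, so its values are a description and carry no test.

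The stretches around it are shown for the targeted gene and for 8 of the 9 genes with the lowest log2 fold changes among those that held the word, were lower than each control and had a control mean of at least 5 FPKM. The capitals mark the word, and each line runs 5′ to 3′ on the strand of the transcript.
Secisbp2l, coding, exon 5 of 18, chr2:125768299-125768327, minus strand: catcagacatcGCTAATAagtctctctcg
Lamp1, 3′ UTR, chr8:13175298-13175326, plus strand: cctgtaacgatGCTAATAaaaagtctcct
Arpc1b, 3′ UTR, chr5:145128153-145128181, plus strand: tcaaaatgtggGCTAATAaacataccaaa
Psmb6, 3′ UTR, chr11:70527618-70527646, plus strand: ccgacgcagaaGCTAATAaacagtttgtt
Cpox, 3′ UTR, chr16:58680351-58680379, plus strand: acatagattcaGCTAATAaattttattat
Cox4i1, 3′ UTR, chr8:120674172-120674200, plus strand: caatggtccatGCTAATAaaagaccagtt
Plekha1, 3′ UTR, chr7:130911471-130911499, plus strand: catttaaacctGCTAATAtgactcccttt
Plekha1, 3′ UTR, chr7:130912667-130912695, plus strand: tgtattcataaGCTAATAtgttagagttc
Desi1, 3′ UTR, chr15:81993607-81993635, minus strand: gtcttctactaGCTAATAtgggaaactgg
Sec61b, 3′ UTR, chr4:47483199-47483227, plus strand: ttttttctatgGCTAATAaactttggaat
The stretches had little in common outside the capitals, apart from the base that followed. It was A in Secisbp2l and in 6 of these 8 genes. The log2 fold changes of the 8 ran from -2.97 in Lamp1 to -2.24 in Sec61b, a subunit of the translocon of the endoplasmic reticulum, with Cpox, an enzyme of heme synthesis, at -2.46, Plekha1 at -2.45 and Desi1 at -2.43. Secisbp2l held the word once in the 6797 bases of its longest transcript, in coding sequence and not in the 3′ UTR. That transcript held 31.5% of all words ranked, so holding any 1 of them is common for an mRNA of this length. Of 1679 mature mouse miRNAs from RefSeq, 0 carried its complement UAUUAGC at bases 2 to 8.

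Genes that held GCTAATA in the 3′ UTR lay lower than genes that did not, with medians of -0.26 and 0.17. Of the 701 holders, 66.8% had a log2 fold change below 0, against 33.7% of the 9730 others. The median was -0.37 for the 278 genes with the word followed by A and -0.20 for the 423 genes with it followed by another base. Genes that held only a 6-letter part of it, CTAATA or GCTAAT, had a median of 0.11 (2990 genes), and genes with neither part 0.20 (6740 genes). Where the word stood only before the 3′ UTR, as in Secisbp2l, the median was 0.05 (285 genes). The number of copies moved the median little, from -0.26 with 1 copy (645 genes) to -0.30 with 2 or more (56 genes).

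The length of the 3′ UTR moved with the values. Of 4 classes of equal size by 3′ UTR length, the shortest held 42 genes with the word. These 42 holders had a median of -0.80 and the others 0.19. The holders' medians in the next classes were -0.51 (78 genes), -0.32 (174 genes) and -0.11 (407 genes), and those of the other genes 0.16, 0.18 and 0.15. The holders thus lay below the others at each length, and by the widest margin in short 3′ UTRs.

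**Figure D2:**
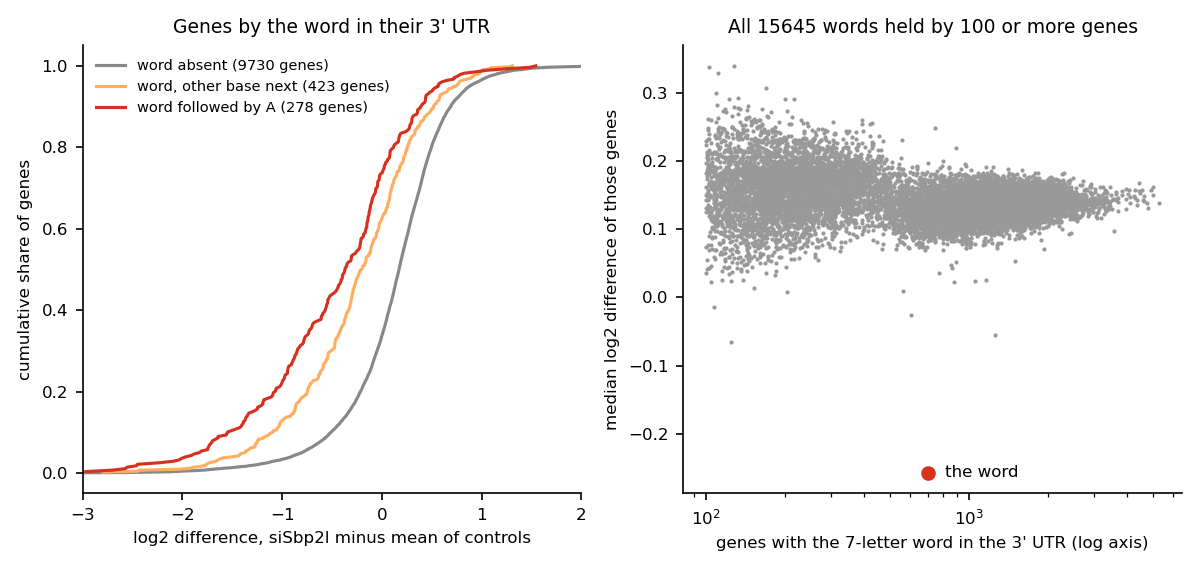
Left, cumulative share of genes (vertical axis) by log2 fold change in siSbp2l (horizontal axis) for genes without GCTAATA in the 3′ UTR, with it followed by A, and with it followed by another base, with medians of 0.17, -0.37 and -0.20. Right, median log2 fold change of the genes that held each 7-letter word (vertical axis) by the number of those genes (horizontal axis, logarithmic), with GCTAATA as the lowest of 15645 points.

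The low values of the holders stood against each control and not between the controls. Their median was lowest against NC siRNA #2 at -0.28 and highest against mock at -0.17, and it was -0.26 for NC siRNA #1 and -0.25 for non-treated. In the comparisons of a control group with the other 3, the medians of the holders were between -0.05 and 0.05. Against siPdgfra, where the cells had also been given a targeting siRNA, the holders had a median of -0.29 and the other genes 0.08. The comparisons with siSbp2l, siPdgfra included, all reuse the 2 siSbp2l libraries by which the word was picked. A low median in each is therefore a description and not separate evidence. Of the genes called lower than each control that had a 3′ UTR, 74 of 223 held the word (33.2%), against 3 of 129 called higher (2.33%) and 624 of 10079 not called (6.19%). Without the holders and Secisbp2l, 162 of the 237 genes called lower than each control and 136 of the 139 called higher remained. Whether the siRNA pairs with these stretches was not tested.

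The holders also differed in their course over differentiation. Among the genes called lower than each control, the median log2 level at Day0 minus untransfected Day3 cells was -0.40 in the 74 holders and -2.69 in the 149 others. The median holder was thus at a similar level at both times, whereas the median of the others rose from Day0 to Day3. Both siSbp2l libraries lay below both Day0 libraries in 60 of the 74 holders (81.1%) and 42 of the 149 others (28.2%), against 37.7% of all genes. The untransfected libraries enter both the call and the Day0 difference.

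In the proteasome and the respiratory chain, the 1 subunit called lower was a holder. Psmb6, a catalytic subunit of the proteasome, stood at 15.9 and 17.8 FPKM in siSbp2l, and the controls ran from 84 through 97.7 to 148 FPKM. These groups did not overlap, and the log2 fold change was -2.57 ± 0.17 (adjusted p = 9.97e-06). The other 34 proteasome subunits tested lay between -0.46 and 0.54 with a median of 0.23. Cox4i1, a subunit of cytochrome c oxidase, stood at 80.9 and 67.5 FPKM against 338, 391 and 556 FPKM for the lowest, the median and the highest control library. Here, too, the siSbp2l libraries lay below all controls, with a log2 fold change of -2.45 ± 0.16 (adjusted p = 1.04e-05). The other 78 subunits of the respiratory chain and ATP synthase lay between -0.67 and 0.60, the other holder Atp5g1 among them at -0.03. In the mitochondrial ribosome, by contrast, none of the 4 holders was called, and their median was 0.23 against 0.06 for the other members. Arpc1b, a holder and a subunit of the Arp2/3 complex that nucleates branched actin, stood at 58.6 and 57.8 FPKM below a control range of 256 to 444 (log2 fold change -2.70 ± 0.17, adjusted p = 7.27e-06), and Actr2, a subunit without the word, was at -0.73 ± 0.11 (adjusted p = 0.000656).

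The ribosome showed the same contrast within 1 list. Of 82 cytosolic ribosomal protein genes tested, 52 were higher at an adjusted p under 0.05 alone, a criterion that 34.3% of all genes met, and the median was 0.48 (0.31 after median-ratio scaling). The 2 called lower, Rpl11 and Fau, both held the word. Rpl11 stood at 127 and 113 FPKM below controls of 239 to 399.9 FPKM, with a log2 fold change of -1.26 ± 0.16 (adjusted p = 0.000328). Fau, which encodes a ubiquitin-like protein fused to ribosomal protein S30, was at -1.02 ± 0.21 (adjusted p = 0.00395). This call was lost without non-treated replicate 1, where the log2 fold change of Fau was -0.90, and without siSbp2l replicate 2, where it was -0.96. The other 3 holders were Rpl8 at -0.97, Rplp1 at -0.10 and Rpl13a at 0.35, so holding the word did not come with a low value in every gene. Rplp0, of the ribosomal stalk, was the 1 member called higher, at 1.17 ± 0.14 (adjusted p = 0.00026), and at 0.93 and no longer called without the NC siRNA #2 group. In ribosome biogenesis, 50 of 65 genes were higher at the adjusted p alone and the median was 0.45, with 1 call in each direction (0 higher and 1 lower after either scaling). Its lowest member was Pno1, a holder that helps assemble the small subunit, at -1.55 ± 0.10 (adjusted p = 8.77e-06), and the next was Ddx52 at -0.05.

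**Figure D3:**
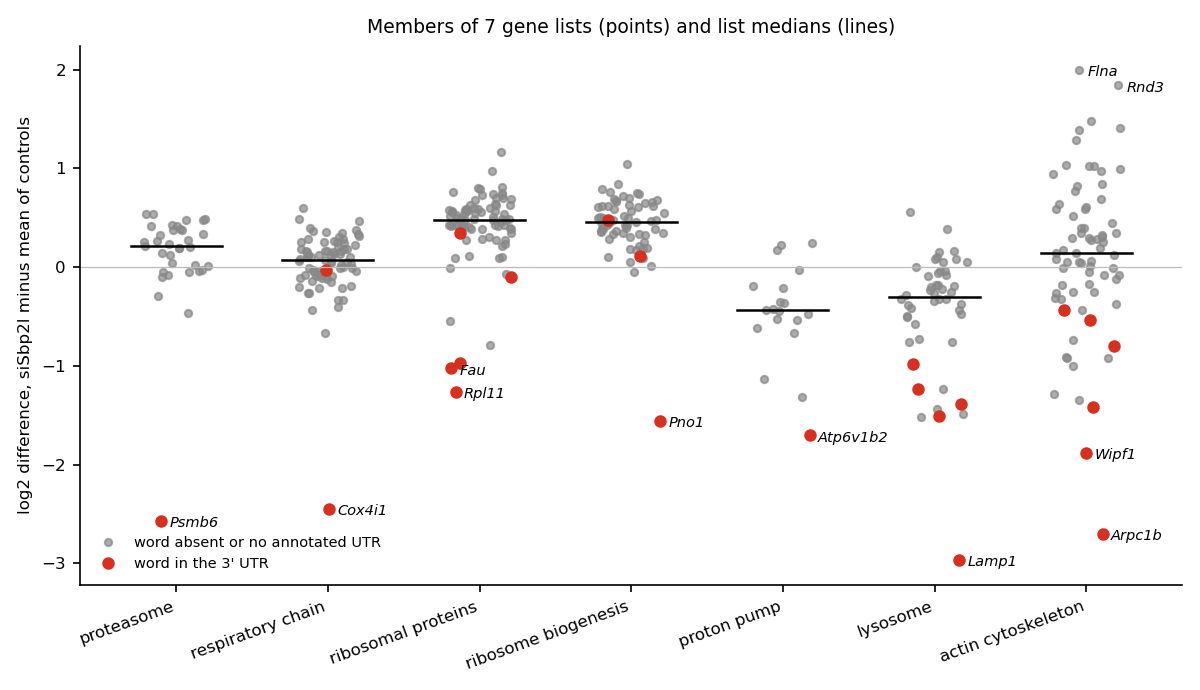
Log2 fold change in siSbp2l (vertical axis) of each member of 7 gene lists (points), in red where the 3′ UTR holds GCTAATA, with a line at the median of each list. Psmb6, Cox4i1 and Pno1 stood apart below the other members of their lists, whereas the members of the lysosome and proton pump lists without the word also lay mostly below 0.

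Lysosome genes leaned lower in siSbp2l, with and without the word. Of 48 lysosomal hydrolases and membrane proteins, 8 were called lower and 22 were lower at the adjusted p alone, a criterion that 17.5% of all genes met, with a median of -0.30. Lamp1, an abundant glycoprotein of the lysosomal membrane, stood at 87.8 and 88.8 FPKM in siSbp2l and at 626, 701 and 779.5 FPKM in the lowest, the median and the highest control library. The libraries did not overlap, and its log2 fold change of -2.97 ± 0.08 (adjusted p = 3.14e-07) came with a Day0 level of 160.2 FPKM, above that of siSbp2l. Ppt1, a thioesterase that removes palmitate from proteins, and Arsb, a sulfatase, also held the word and fell, at -1.51 ± 0.08 and -1.39 ± 0.07 (adjusted p = 3.93e-06 and 2.98e-06). Arsa, the sulfatase that degrades the myelin lipid sulfatide, and the protease Lgmn did not hold it and were at -1.51 ± 0.13 and -1.44 ± 0.08 (adjusted p = 4.44e-05 and 4.49e-06). Without its 5 holders the list had a median of -0.25, and 17 of 43 genes were lower at the adjusted p alone.

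The vacuolar proton pump, which acidifies lysosomes, had a median of -0.43 over 19 subunits and accessory proteins, with 13 lower at the adjusted p alone. Its 3 called members were the holder Atp6v1b2 at -1.70 ± 0.08, Atp6v0a2 at -1.31 ± 0.08 and Atp6v0e2 at -1.14 ± 0.12 (adjusted p = 2.3e-06, 4.19e-06 and 0.000114). The 18 members without the word had a median of -0.42, and 12 were lower at the adjusted p alone. In autophagy, 0 of 30 genes passed both limma thresholds, while 9 were higher and 12 lower at an unadjusted p under 0.05. At the adjusted p alone, 7 were higher and 9 lower, beside 34.3% and 17.5% of all genes.

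Next, the lists were compared by their medians, beside that of all genes. Among the 5 lists with the lowest medians were the committed premyelinating markers at -0.94 and the mitosis genes at -0.68, and the highest median among lists of at least 10 genes was 0.67, that of the factors holding back OL differentiation.

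**Figure D4:**
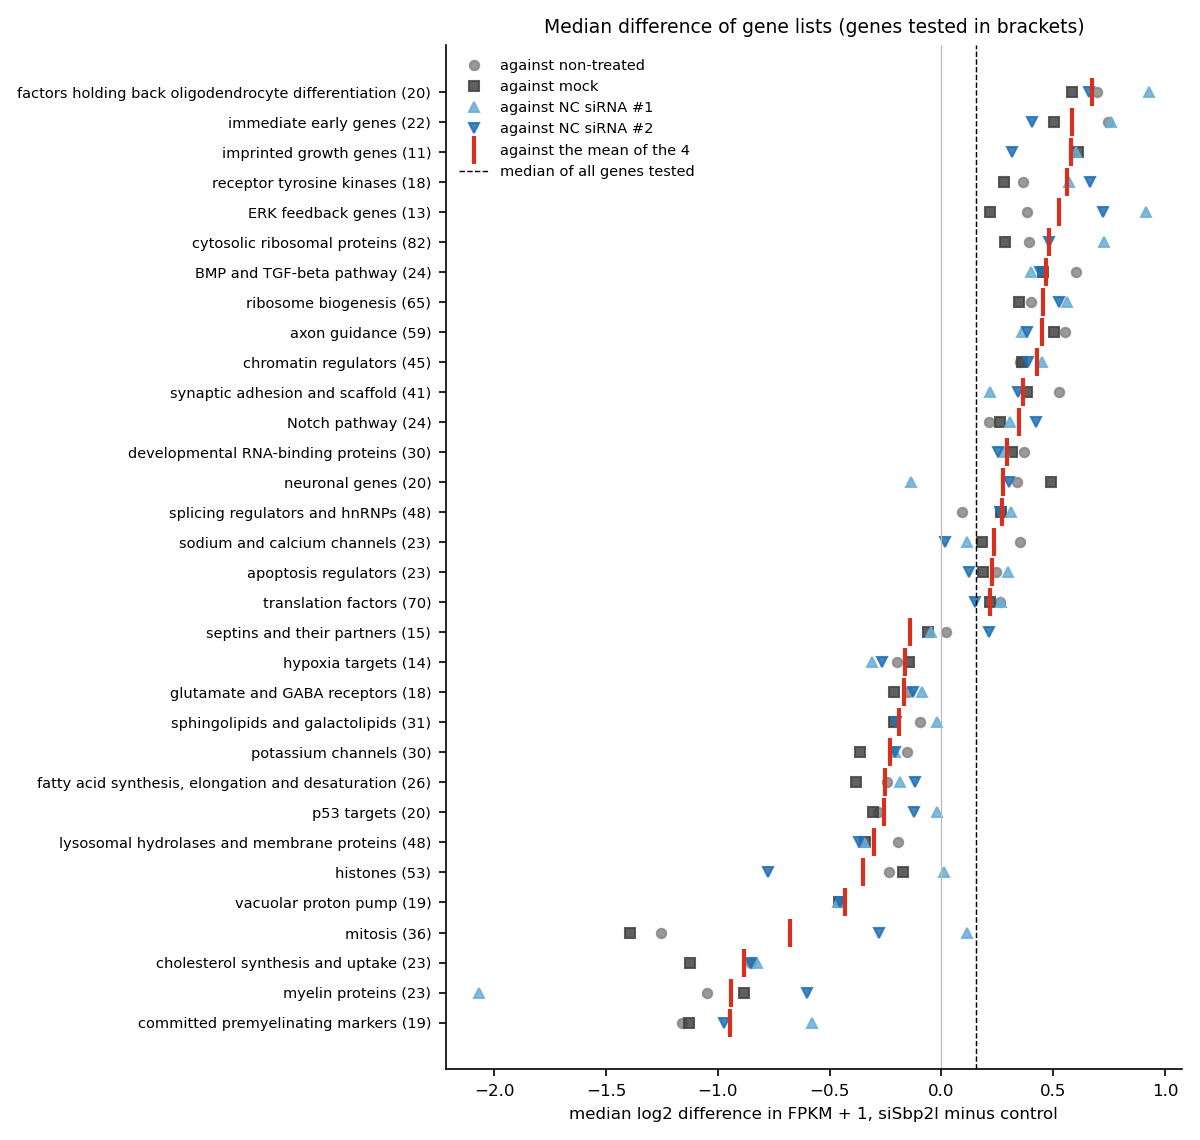
Median log2 fold change in siSbp2l (horizontal axis) of the gene lists with the lowest and highest medians among those with at least 10 genes tested (rows), against each of the 4 controls (markers) and against their mean (bar), with a dashed line at the median of all genes, 0.15. The markers of the mitosis list spread from -1.39 (mock) to 0.11 (NC siRNA #1), those of the myelin list from -2.07 (NC siRNA #1) to -0.60 (NC siRNA #2), and those of the vacuolar proton pump and lysosome lists lay close together.

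Factors listed as holding precursors back were mostly higher. Of 20 such factors tested, 6 were called higher and 16 were higher at the adjusted p alone (34.3% of all genes). The median was 0.67 (0.52 after median-ratio scaling). Hes1, a repressor downstream of Notch, stood at 9.52 and 9.72 FPKM in siSbp2l and at 1.16, 2.00 and 2.29 FPKM in the lowest, the median and the highest control library. These values did not overlap and gave a log2 fold change of 1.94 ± 0.12 (adjusted p = 6.58e-06). Id2, which sequesters basic helix-loop-helix factors, stood at 162 and 155 FPKM above controls of 27.8 to 66.8 FPKM (1.77 ± 0.10, adjusted p = 4.19e-06). Sox11 and Nfib, transcription factors of immature neural cells, were at 1.46 ± 0.10 and 1.42 ± 0.13 (adjusted p = 8.08e-06 and 4.27e-05), and like Hes1 and Id2 they were called against each control. Hes5 was at 1.25 ± 0.27 (adjusted p = 0.00555). Without siSbp2l replicate 1 the log2 fold change of Hes5 was 1.23 with an adjusted p of 0.0565. Tcf4, a different gene from Tcf7l2, was at 1.04 ± 0.13 (adjusted p = 0.00024). Its log2 fold change was 0.97 without non-treated replicate 1 and 0.88 after median-ratio scaling. Tcf4 was counted in this list, but whether it holds precursors back was not tested.

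Of 8 neural stem and radial glia markers, 4 were called higher, and 1 was called higher than each control. Nes, an intermediate filament protein of neural progenitors, stood at 61.2 and 60.4 FPKM above controls of 16.7 to 25.7 FPKM (1.42 ± 0.08, adjusted p = 4.36e-06) and below the 118 FPKM of Day0. Vim, another intermediate filament protein, was at 1.42 ± 0.11 (adjusted p = 1.72e-05). Among 18 precursor markers the calls were 3 higher and 1 lower (3 and 2 after median-ratio scaling) and the median was 0.04 (-0.11 after that scaling), below that of all genes. Pdgfra, the PDGF receptor on which the cells were panned, stood at 149.9 and 144 FPKM above controls of 32.4 to 72.1 FPKM, with 1.54 ± 0.08 (adjusted p = 2.39e-06), and well below the 422 FPKM of Day0. Vcan, a matrix proteoglycan, was at 1.43 ± 0.14, and Neu4, a sialidase, was at -1.68 ± 0.10 (adjusted p = 7.15e-05 and 5.47e-06). The precursor markers thus did not move as a block.

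Of 19 committed premyelinating markers, 9 were called lower and 16 were lower at the adjusted p alone (17.5% of all genes). The median was -0.94, and none of the 9 held the word. Against each of the 4 controls, 2 of the 9 were called lower. Sirt2, a deacetylase abundant in OLs, stood at 419.5 and 438 FPKM below controls of 2107 to 3114 FPKM (-2.51 ± 0.13, adjusted p = 3.36e-06). Enpp6, a choline-specific phosphodiesterase of newly forming OLs, was at -1.49 ± 0.17, and Itpr2, a calcium channel of the endoplasmic reticulum, at -1.27 ± 0.09 (adjusted p = 0.000157 and 1.19e-05). Of 17 factors that drive differentiation, 3 were called lower and 1 higher (3 and 0 after either scaling), among them the zinc-finger factor St18 at -1.70 ± 0.14 and Gm98, the older symbol of Myrf, at -1.15 ± 0.13 (adjusted p = 2.68e-05 and 0.000143). Tcf7l2, a mediator of Wnt signaling that drives maturation, stood at 45 and 48.1 FPKM against controls of 47.2 to 61 FPKM (-0.21 ± 0.07, adjusted p = 0.0336, not called), and its 3′ UTR did not hold the word. The pan-lineage factors Olig1, Olig2 and Sox10 were at 0.27, -0.12 and -0.15, all with an adjusted p above 0.05.

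Receptors and feedback genes of growth factor signaling leaned higher. Of 18 receptor tyrosine kinases, 4 were called higher and 1 lower, with a median of 0.56 (0.44 after median-ratio scaling). Erbb4, a neuregulin receptor, stood at 60.1 and 65.7 FPKM in siSbp2l and at 5.74, 11.4 and 17.6 FPKM in the lowest, the median and the highest control library. It did not overlap the controls, lay above its Day0 level of 9.6 FPKM and had a log2 fold change of 2.35 ± 0.19 (adjusted p = 2.54e-05). Erbb3, the other neuregulin receptor of the lineage, was at 1.48 ± 0.07, and Igf1r, the IGF-1 receptor, at 1.35 ± 0.10 (adjusted p = 2.39e-06 and 1.5e-05). Tyro3, a receptor of Gas6 and protein S, was at -1.57 ± 0.15 (adjusted p = 6.19e-05), but was not called against each control. Irs4, an adaptor of insulin and IGF receptors, stood at 18.5 and 16.9 FPKM above controls of 1.87 to 4.17 FPKM and a Day0 level of 0.275 FPKM (2.30 ± 0.09, adjusted p = 9.09e-07). Among growth factors, Vegfa and Gdnf were lower, at -1.71 ± 0.11 and -1.21 ± 0.09 (adjusted p = 1.05e-05 and 1.44e-05), but the siSbp2l values of Gdnf, 0.675 and 0.946 FPKM, overlapped those of NC siRNA #1, 0.795 and 0.793 FPKM. Neither Vegfa nor Gdnf was called against each control.

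Of 13 feedback genes of the ERK pathway, 3 were called higher and 9 were higher at the adjusted p alone (34.3% of all genes). The median was 0.53. Spry1, an inhibitor of receptor signaling, was at 1.18 ± 0.11 (adjusted p = 4.93e-05) and was called against each control, whereas the calls of Spred2 and Etv1 were lost after median-ratio scaling. Of 22 immediate early genes, 5 were called higher and 17 were higher at the adjusted p alone (34.3% of all genes). The median was 0.58. Jun, a subunit of AP-1, stood at 119 and 114 FPKM above controls of 31.5 to 52.3 FPKM (1.30 ± 0.15, adjusted p = 0.000157). Btg2, an antiproliferative p53 target that is also induced as an immediate early gene, was at 1.57 ± 0.14 (adjusted p = 4.41e-05). Myc was at 1.18 ± 0.14 (adjusted p = 0.000171), and at 0.92 and no longer called without the NC siRNA #1 group.

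Of 24 Notch pathway genes, 5 were called higher, with a median of 0.35 (0.22 after median-ratio scaling). The ligand Dll1 was at 1.29 ± 0.10 and the receptor Notch1 at 1.26 ± 0.10 (adjusted p = 1.7e-05 and 3.04e-05), beside the targets Hes1 and Hes5. Each of the 7 Hedgehog pathway genes tested was higher at the adjusted p alone, as were 34.3% of all genes. The 7 lay between 0.41 and 1.14, and Ptch1, a receptor and target of the pathway, was called at 1.14 ± 0.07 (adjusted p = 4.87e-06). After median-ratio scaling Ptch1 was at 0.98 and no longer called. Of 6 feedback targets of Wnt signaling, 1 was called, the inhibitor Apcdd1 at 1.62 ± 0.09 (adjusted p = 3.93e-06). The 24 genes of the BMP and TGF-beta pathway had a median of 0.47, with Smad7, an inhibitor of both branches, lower at -1.33 ± 0.11 (adjusted p = 3.56e-05). Smad7 was not called against each control.

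H19, an imprinted long noncoding RNA of fetal growth, stood at 1314 and 1154 FPKM in siSbp2l and at 75.6, 192 and 522 FPKM in the lowest, the median and the highest control library (2.56 ± 0.17, adjusted p = 9.71e-06). The siSbp2l libraries lay above every control and far above the Day0 level of 11.8 FPKM. Rxrg, a partner of thyroid hormone receptors, stood at 4.6 and 4.78 FPKM, where the controls did not exceed 0.666 FPKM (2.12 ± 0.11, adjusted p = 3.05e-06). Klf9, a target of thyroid hormone, was lower at -1.10 ± 0.10 (adjusted p = 4.01e-05), but was not called against each control.

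Adhesion and guidance genes moved in both directions. Of 59 axon guidance genes, 9 were called higher and 6 lower, with a median of 0.45 (0.32 after median-ratio scaling, which gave 6 and 7). On the lower side, Sema4a and Sema5a, semaphorins, were at -2.56 ± 0.14 and -1.63 ± 0.15 (adjusted p = 4.26e-06 and 5.33e-05). The netrin receptor Unc5b and the ephrin receptor Ephb1 were at -1.82 ± 0.13 and -1.73 ± 0.10 (adjusted p = 1.58e-05 and 5.15e-06). Sema4g, at -1.75 ± 0.14 (adjusted p = 2.54e-05), was the 1 holder of the word among these 6. On the higher side, the ephrin receptor Ephb3 stood at 11.6 and 12.1 FPKM above controls of 1.69 to 3.17 FPKM (1.79 ± 0.14, adjusted p = 2.23e-05).

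Of 41 synaptic adhesion and scaffold genes, 7 were called higher and 3 lower. Cntn2, a contactin of the juxtaparanode, stood at 6.12 and 6.25 FPKM in siSbp2l and at 0.25, 0.387 and 0.715 FPKM in the lowest, the median and the highest control library. Its groups were far apart (2.32 ± 0.08, adjusted p = 8.24e-07), and at Day0 it was at 0.0841 FPKM. Its relative Cntn6 was at 2.22 ± 0.10 and Slitrk1, a synapse-inducing membrane protein, at 2.02 ± 0.08 (adjusted p = 2.01e-06 and 9.68e-07). Nfasc, an adhesion molecule of the node and paranode, stood at 83.7 and 87.1 FPKM below controls of 245 to 448 FPKM (-2.01 ± 0.08, adjusted p = 9.92e-07). Of 20 neuronal genes, 3 were called higher and 3 lower (3 and 4 after either scaling), with a median of 0.28. Dcx, a microtubule protein of migrating neurons and precursors, and the growth cone protein Gap43 were higher, at 2.05 ± 0.16 and 1.40 ± 0.10 (adjusted p = 2.05e-05 and 1.54e-05). Chgb, a protein of secretory granules, and the enolase Eno2 were lower, at -1.42 ± 0.14 and -1.17 ± 0.10 (adjusted p = 6.52e-05 and 4.36e-05). Among cadherins, Cdh8, 1 of the 3 holders called higher than each control, and the giant cadherin Fat4 were higher, at 1.54 ± 0.09 and 1.45 ± 0.10, and Cdh20 was lower at -1.49 ± 0.07 (adjusted p = 3.87e-06, 7.96e-06 and 2.01e-06).

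The actin list held 72 genes, of which 9 were called higher and 6 lower (6 and 8 after median-ratio scaling), around a median of 0.14 (-0.02 after that scaling). Flna, which cross-links actin filaments, stood at 86.1 and 89.3 FPKM in siSbp2l and at 16.2, 20.9 and 28.1 FPKM in the lowest, the median and the highest control library. No control library reached the siSbp2l values (2.00 ± 0.08, adjusted p = 9.92e-07). The formin Fmnl3 was at 1.48 ± 0.11 and Rnd3, an atypical small GTPase that opposes contractility, at 1.84 ± 0.09 (adjusted p = 1.37e-05 and 1.83e-06). Besides Arpc1b, the holders Wipf1, a partner of the actin nucleation factor WASP, and Myo6, a myosin, were lower at -1.88 ± 0.08 and -1.42 ± 0.10 (adjusted p = 1.17e-06 and 1.44e-05).

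In the microtubule list, 5 of 40 genes were called lower and 1 higher, around a median of 0.14 (-0.02 after median-ratio scaling). Tppp, which promotes microtubule polymerization in OLs, stood at 52.5 and 55.6 FPKM below controls of 215 to 446 FPKM (-2.58 ± 0.08, adjusted p = 5.52e-07). Mtap7, a microtubule-associated protein, was at -2.13 ± 0.08 and Stmn1, which destabilizes microtubules, at -1.54 ± 0.14 (adjusted p = 9.92e-07 and 4.89e-05), while the related Stmn4 was higher at 1.22 ± 0.07 (adjusted p = 4.27e-06) and at 0.97, no longer called, without the NC siRNA #2 group. Septins, filament-forming GTPases, split as well. Sept4 stood at 10.3 and 11.1 FPKM below controls of 61.8 to 174 FPKM (-3.37 ± 0.11, adjusted p = 5.56e-07), whereas Sept8 was higher at 1.31 ± 0.08 (adjusted p = 4.49e-06). Tspan2, a tetraspanin of OLs, stood at 5.65 and 5.69 FPKM below controls of 79.5 to 128 FPKM and below its Day0 level of 10.3 FPKM (-3.93 ± 0.15, adjusted p = 1.03e-06), and another tetraspanin, Tspan17, was at -1.67 ± 0.11 (adjusted p = 1.15e-05).

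Matrix genes were called in both directions, 4 of 41 each (3 higher and 5 lower after median-ratio scaling). Col27a1, a fibrillar collagen, was higher at 1.51 ± 0.12 and Spock2, a proteoglycan, lower at -1.54 ± 0.09 (adjusted p = 2.7e-05 and 4.57e-06). Spock2 was not called against each control. Of 35 matrix proteases and inhibitors, 6 were called higher and 2 lower (3 and 3 after median-ratio scaling). Adamts1, a protease of matrix proteoglycans, stood at 58.4 and 58.1 FPKM above controls of 11.7 to 19.1 FPKM (1.91 ± 0.07, adjusted p = 8.24e-07). Plau, the urokinase plasminogen activator, was lower at -1.97 ± 0.09 (adjusted p = 1.5e-06). Itga8, an integrin subunit, was the 1 called of 13, at 1.47 ± 0.10 (adjusted p = 1.16e-05).

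Potassium channels leaned lower, and sodium and calcium channels did not. Of 30 potassium channel genes, 5 were called lower and 15 were lower at the adjusted p alone (17.5% of all genes). The median was -0.23, and none of the 5 held the word. Kcnj12, an inward rectifier, stood at 2.21 and 2.09 FPKM below controls of 8.2 to 14.7 FPKM (-2.03 ± 0.12, adjusted p = 5.15e-06). Kcna1, a voltage-gated channel, and Kcnj10, the main inward rectifier of glia, were at -1.82 ± 0.13 and -1.14 ± 0.07 (adjusted p = 1.2e-05 and 5.15e-06). The 23 sodium and calcium channel genes had a median of 0.24. At the adjusted p alone, 11 were higher and 5 lower, beside 34.3% and 17.5% of all genes. Of the 23, 1 was called higher, Cacng4, an auxiliary subunit of calcium channels and AMPA receptors, at 1.32 ± 0.08 (adjusted p = 4.83e-06), but not against each control. The 2 called lower were Hcn2, a cation channel opened by hyperpolarization, at -1.90 ± 0.13 and Cacnb4, a calcium channel subunit, at -1.24 ± 0.19 (adjusted p = 1.04e-05 and 0.0008). Among transmitter receptors, the metabotropic glutamate receptor Grm7 was lower at -2.15 ± 0.10, and the AMPA receptor subunits Gria1 and Gria3 moved apart, at -1.21 ± 0.08 and 1.58 ± 0.10 (adjusted p = 1.73e-06, 1.08e-05 and 8.66e-06). Gria3 was not called against each control. Gpr125, an adhesion G-protein-coupled receptor, stood at 56.5 and 56.8 FPKM above controls of 12.2 to 14.6 FPKM (2.02 ± 0.08, adjusted p = 9.92e-07). Lpar1, a receptor of lysophosphatidic acid, was lower at -1.32 ± 0.09 (adjusted p = 8.08e-06), but was not called against each control.

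In vesicle traffic, 1 of 45 Rab genes was called, Rab33a at -1.64 ± 0.14 (adjusted p = 3.55e-05). Of 53 SNARE, synaptotagmin and exocyst genes, 4 were called lower and 2 higher (5 and 1 after either scaling), among them Syt4 at -1.78 ± 0.14, Stxbp2, a binding partner of syntaxins, at -1.68 ± 0.14 and Syt1, the calcium sensor of fast release, at 1.72 ± 0.07 (adjusted p = 2.8e-05, 3.34e-05 and 1.29e-06).

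Lipid enzymes beyond cholesterol synthesis were lower at single steps. Of 31 sphingolipid and galactolipid genes, 6 were called lower, none of them a holder, and the median was -0.19. Fa2h, which makes the 2-hydroxy fatty acids of myelin galactolipids, stood at 10.8 and 13.6 FPKM below controls of 46.1 to 74 FPKM (-2.20 ± 0.12, adjusted p = 4.19e-06). Sgms2, a sphingomyelin synthase, and Cerk, the ceramide kinase, were at -2.17 ± 0.10 and -1.88 ± 0.09 (adjusted p = 1.52e-06 and 2.61e-06). Of 57 phospholipid genes, 6 were called lower and 3 higher, with Pcyt2, of phosphatidylethanolamine synthesis, at -2.03 ± 0.18 and the phospholipase Plce1 at 1.33 ± 0.08 (adjusted p = 3.96e-05 and 6.39e-06). Of 26 fatty acid genes, 4 were called lower, led by the elongase Elovl7 at -1.71 ± 0.12 (adjusted p = 1.2e-05). Alox5, which starts leukotriene synthesis, stood at 0.506 and 0.457 FPKM in siSbp2l and at 9.87, 17.9 and 24.4 FPKM in the lowest, the median and the highest control library. The groups did not overlap, and the log2 fold change was -3.61 ± 0.11 (adjusted p = 5.52e-07). Ptgds, the prostaglandin D synthase, was at -1.83 ± 0.18 (adjusted p = 7.38e-05). In the cholesterol list, 8 of 23 genes were called lower (14 after either scaling) and in the myelin list 10 of 23 (15 after median-ratio and 14 after upper-quartile scaling), with 0 and 2 holders among the called, Cryab, a small heat shock protein, among the latter at -2.03 ± 0.11 (adjusted p = 3.31e-06).

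RNA-binding and chromatin genes were called in both directions, as were all genes, of which 3.15% were called higher and 4.12% lower. Of 30 developmental RNA-binding proteins, 6 were called higher and 1 lower (4 and 2 after either scaling), with a median of 0.29, and none of the 6 was higher than each control. Igf2bp2, which binds IGF2 mRNA, was at 1.33 ± 0.08, and the cold shock domain protein Csda at 1.24 ± 0.07 (adjusted p = 6.61e-06 and 4.9e-06), while Larp6, which binds collagen mRNAs, was lower at -1.43 ± 0.15 (adjusted p = 0.000117). Rbfox2, a splicing regulator, stood at 20.9 and 20.4 FPKM above controls of 4.98 to 9.04 FPKM (1.47 ± 0.08, adjusted p = 3.96e-06). Of 70 translation factors, 3 were called lower and 2 higher (3 and 0 after either scaling), near the shares of all genes. Among the lower was the holder Eif4g1, a scaffold of cap-dependent initiation, at -1.07 ± 0.07 (adjusted p = 9.54e-06). Of 45 chromatin regulators, 3 were called higher and 2 lower (2 and 3 after median-ratio scaling). Hmgb2 and Hmgb3, architectural proteins, moved apart, at -1.34 ± 0.10 and 1.34 ± 0.09 (adjusted p = 1.3e-05 and 1.17e-05). Hmgb2 was not called against each control. Of 53 histone genes, 4 were called lower and 0 higher, with 5 higher at an unadjusted p under 0.05 by limma, and the median was -0.35. At the adjusted p alone, 5 were higher and 17 lower, beside 34.3% and 17.5% of all genes. H2afz, which encodes the variant H2A.Z, stood at 27.3 and 26.9 FPKM below controls of 78.6 to 125 FPKM (-1.75 ± 0.12, adjusted p = 9.75e-06) and did not hold the word. Reads of nearly identical histone genes may be split between copies.

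Calls among stress and energy genes varied by list. In the integrated stress response, 0 of 35 genes passed both limma thresholds, with 15 higher and 3 lower at an unadjusted p under 0.05, and 0 of 23 apoptosis regulators did, with 12 and 4. At the adjusted p alone, 13 stress response genes were higher and 3 lower, and 9 apoptosis regulators were higher and 4 lower. Of all genes, 34.3% were higher and 17.5% lower by that criterion. Atf6, a sensor of unfolded proteins and a holder, was the 1 called of 26 genes of the unfolded protein response, at -1.12 ± 0.12 (adjusted p = 9.27e-05). Gstm1, a glutathione transferase, was the 1 called of 29 antioxidant genes, at -1.32 ± 0.12, and Pcx, pyruvate carboxylase, the 1 called of 27 in the citrate cycle list, at -1.35 ± 0.11 (adjusted p = 4.27e-05 and 3.19e-05). Of 24 genes of glycolysis and lactate transport, 1 was called higher and 2 lower, and none of these against each control. Tpi1, a glycolytic isomerase, was at -1.21 ± 0.16 and Ldhb, a lactate dehydrogenase subunit, at 1.16 ± 0.13 (adjusted p = 0.000327 and 0.000132), and the call of Ldhb was lost after median-ratio scaling. Of 12 interferon response genes, 2 were called higher and 1 lower (0 and 1 after either scaling), the last being Mx2, an interferon-induced GTPase and a holder, at -1.64 ± 0.10 (adjusted p = 6.46e-06). Of 16 selenoprotein genes, 0 passed both limma thresholds, with values from -0.32 to 0.95 and 3 higher and 1 lower at an unadjusted p under 0.05. At the adjusted p alone, 3 were higher and 1 lower, beside the 34.3% and 17.5% of all genes. Gpx4, a glutathione peroxidase with selenocysteine, stood at 193 and 184 FPKM against controls of 184 to 299 FPKM (-0.26 ± 0.15, adjusted p = 0.179). Secisbp2, which encodes Sbp2, stood at 20.9 and 19.5 FPKM above controls of 12 to 14.4 FPKM, but its log2 fold change of 0.56 ± 0.08 (adjusted p = 0.000357) was under 2-fold.

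Cell cycle genes depended on the control. Each of the 36 mitosis genes tested was lower at the adjusted p alone against the mean of the controls (17.5% of all genes). The median was -0.68, and 5 were called. Against the single controls the median was -1.25 (non-treated) and -1.39 (mock), but -0.28 against NC siRNA #2 and 0.11 against NC siRNA #1. Top2a, a topoisomerase of dividing cells, stood at 1.53 and 1.6 FPKM in siSbp2l, within the 1.33 and 1.98 FPKM of NC siRNA #1. It was at 4.11 and 3.74 FPKM in NC siRNA #2, between 12.3 and 16 FPKM in non-treated and mock cells and at 242 FPKM at Day0 (-1.52 ± 0.12 against the mean, adjusted p = 2.7e-05). In 4 of the 36 genes both siSbp2l libraries lay below all 8 control libraries (13.5% of all genes), and the lower mean came with the high values of the non-treated and mock cells. The 39 DNA replication genes had a median of 0.03 with 1 call in each direction (-0.11, with 1 higher and 3 lower, after median-ratio scaling).

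Markers of other cell types were checked beside these results. Microglia, endothelial and mural markers were low, and most were under 1 FPKM throughout. They summed to 3.76 to 4.94, 1.34 to 2.38 and 2.51 to 2.95 FPKM in siSbp2l. In the controls the sums were 1.89 to 10.4, 1.41 to 3.16 and 2.14 to 3.83 FPKM. Cldn5 was listed at 0 in every library, and Aif1, Cx3cr1 and Pdgfrb did not exceed 0.0527 FPKM in any. The microglia marker P2ry12 was higher, at 3.21 and 3.82 FPKM in siSbp2l and 0.703 to 9.46 in the controls. The 16 astrocyte markers summed to 317 to 323 FPKM in siSbp2l and 288 to 482 in the controls, with 4 markers under 1 FPKM throughout. Aqp4 reached 0.608 FPKM and Gja1 0.0523 FPKM at most, whereas Gfap stood at 39.4 and 40.7 FPKM in siSbp2l and between 36.8 and 79.2 in the controls. In siSbp2l, Sox9 and Fgfr3 lay above every control library, and S100b and Aldh1l1 below every one. The 13 neuron markers summed to 209 FPKM in both siSbp2l libraries and 56.4 to 289 in the controls, nearly all of it Tubb3. Snap25 and Slc17a7 stayed under 1 FPKM in all 10 libraries. Rbfox3, Syt1 and Gad1, by contrast, lay above every control library in siSbp2l, though Gad1 also stayed under 1 FPKM. The part of other cell types in the neuronal and synaptic genes called in either direction was not tested.

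Among the 15 highest and 15 lowest genes called against each control, several belonged to none of the lists. Arhgap36, a protein with a GTPase-activating domain that raises Hedgehog signaling, stood at 7.24 and 7.45 FPKM in siSbp2l, where no control library exceeded 0.475 FPKM (2.81 ± 0.11, adjusted p = 1.17e-06). At Day0 it was at 7.52 FPKM, close to its level in siSbp2l. Rprm, a p53-induced regulator of the G2 phase, was at 2.10 ± 0.14, and Tox, an HMG-box factor, at 2.03 ± 0.07 (adjusted p = 1.11e-05 and 8.24e-07). On the lower side, Ppfibp2, a liprin, stood at 1.81 and 1.76 FPKM below controls of 19 to 26.8 FPKM (-3.02 ± 0.07, adjusted p = 1.6e-07), and Rnf112, a RING finger protein, was at -3.01 ± 0.13 (adjusted p = 1.5e-06). Tmod2, which caps actin filaments, and Dgat2, which makes triacylglycerol, were at -2.60 ± 0.14 and -2.58 ± 0.13 (adjusted p = 4.19e-06 and 3.05e-06). Of the 15 lowest, 3 held the word, Lamp1 and Arpc1b among them, and of the 15 highest none did. Atp6v0c-ps2, annotated as a pseudogene of a proton pump subunit, was also among the lowest at -3.58 ± 0.46 (adjusted p = 0.000315), and its values of 2.84 and 0.0009 FPKM in siSbp2l are uncertain because reads can be shared with the parent gene.

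Finally, the difference between siSbp2l and the NC siRNA controls was set beside the difference between Day0 and the untransfected Day3 cells, which share no library with it. Over 11540 genes, Pearson's r was 0.455 and Spearman's rho 0.418, as a description across genes, which are not independent replicates. Of the genes called higher than each control, 109 of 139 were higher at Day0 than in non-treated and mock cells, with a median of 0.76, and of those called lower 207 of 237 were lower at Day0, with a median of -1.98. The median of all genes was 0.07. The non-treated and mock libraries enter both these calls and the Day0 difference, which tilts the counts towards this pattern. They are a description and carry no test. Part of the higher genes went past the Day0 level. In 96 of 139 both siSbp2l libraries lay above both Day0 libraries, against 50.1% of all genes, and in 33 below. Cntn2, Irs4 and H19 were low at Day0 and high in siSbp2l, while Pdgfra and Nes stood between the controls and Day0. Of the 237 genes called lower, both siSbp2l libraries lay above both Day0 libraries in 119 and below them in 109. Of all genes, 50.1% lay above and 37.7% below in this way, so the 119 were near that share.

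**Figure D5:**
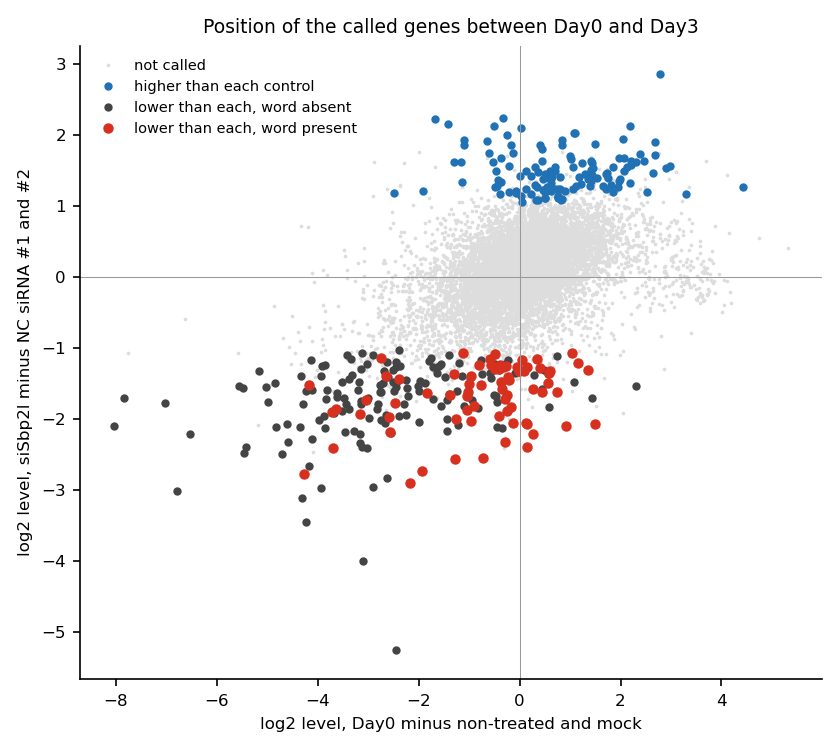
Log2 difference of Day0 minus the mean of non-treated and mock (horizontal axis) and of siSbp2l minus the mean of NC siRNA #1 and NC siRNA #2 (vertical axis) for each gene with an annotated 3′ UTR (points). Genes higher than each control are in blue. Genes lower than each control are in red where the 3′ UTR holds GCTAATA and in dark grey otherwise. The red points centred near 0 on the horizontal axis (median -0.40), and the dark points lay farther left (median -2.69 over the 149 with a 3′ UTR).

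The same genes were also set against cells given the other targeting siRNA. With siPdgfra as the reference, calls reached 808 genes on the higher side (6.94%) and 784 on the lower side (6.73%). Of the genes called against each of the 4 controls, 88 of 139 higher and 148 of 237 lower were called in the same direction against siPdgfra, a comparison that shares the siSbp2l libraries with them. Lamp1 was at -2.84 and Cox4i1 at -2.56 against siPdgfra (adjusted p = 8.91e-08 and 5.1e-06), and Sept4 and Alox5, which did not hold the word, were at -3.47 and -0.17 (adjusted p = 1.88e-07 and 0.433).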

How the data were processed

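Total mRNA of the cells was sequenced by the authors from stranded libraries with paired-end reads, and OmicSoft ArrayStudio with the mm10 refGene gene model gave FPKM values per gene and library (settings not given in the sources used here). The deposited table is called count data, but its values are FPKM and not whole numbers, and they were used as deposited. A further table holds the authors' fold changes, p-values and FDR from DESeq2 for siSbp2l against each control, and only its gene positions were used. Genes that reached 1 FPKM in 2 or more of these 10 libraries were fitted on log2(FPKM + 1) with limma 3.58.1 (R 4.3.3, trend and robust), with 1 mean per group and 5 residual degrees of freedom, p-values were two-sided and adjusted over 11540 genes (Benjamini-Hochberg), and the scripts were tested on simulated data. Fragments were recovered from the steps between low FPKM values, and 89.6 to 93.0% of values came out whole within 0.1. As lengths enter these steps, no count test was run. Replicate pairs differed by more than sampling noise in each group, so all 10 libraries were kept. Named genes were Secisbp2l, Secisbp2 and Tcf7l2, the 15 higher and 15 lower genes with the largest difference among those called against each control with a mean of at least 5 FPKM, up to 6 called members of each list with the largest difference, or up to 3 members of a list with none, and up to 2 members a list whose calls differed between controls. The comparison, the members of the lists and the lists themselves, written from general knowledge, were chosen with earlier results of these data known. The 7-letter word, Cpox, Desi1, Plekha1, Sec61b, Olig1, Olig2, Sox10, Rpl8, Rplp1, Rpl13a, Ddx52, Atp5g1, Actr2 and the markers of other cell types given singly were chosen after their values were seen. The 3′ UTR was the longest of the complete protein-coding transcripts of each gene in GENCODE vM21. Other pseudocounts, filters, scalings, fits and thresholds, and fits without each library or control group, were run as alternatives. A few genes that the rule names are not reported here.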

Additional observations from a re-analysis of the deposited data

How the results depend on the processing

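The 4 counts of called genes were 364 higher and 475 lower against the mean of the controls, and 139 higher and 237 lower against each. A pseudocount of 0.1 gave 638, 720 and 233 for the first 3 of these, and a pseudocount of 5 gave 125, 267, 54 and 114. Median-ratio scaling gave 218 and 87 higher and upper-quartile scaling 241 higher against the mean. An adjusted p under 0.05 alone gave 3953, 2017, 1507 and 885, and a 1.5-fold threshold gave 1586, 1106, 652 and 562. Leaving out each library in turn gave 340 to 386, 466 to 496, 133 to 141 and 218 to 237, where the lone library of a group is assumed to vary like the other groups. Without the genes that held GCTAATA and Secisbp2l, an alternative chosen after seeing the data, the counts were 354, 359, 136 and 162. Every other alternative run on these counts moved them by less than 1.5 times, and no named gene changed direction while called. Of 225 named genes that were called, 129 kept the call under every alternative, and a pseudocount of 5 ended 84 calls, median-ratio scaling 22 and upper-quartile scaling 18. With the replicate number as a block the counts stayed at 364, 475, 139 and 237. As each group held 1 library of each number, the block could change the p-values but not the fold changes. The correlation between groups of the differences between replicates ran from -0.386 to 0.219 over 10 pairs of groups, so the numbers were not taken to pair the samples. With 2 libraries a group, and 6.54 M fragments in NC siRNA #2 replicate 2, differences in genes near 1 FPKM were the least precise.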
